A study of Homo sapiens with 12 samples.

Results

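Respiratory chain subunits encoded in the nucleus were followed through palbociclib treatment in 2 human prostate cancer cell lines. The set held 91 protein-coding nuclear genes, chosen by name and not by any measured value from the 57167 genes of the DU145 count table, each with the same Ensembl identifier among the 61860 genes of the C4-2 table. Earlier results of these data were known when the set was chosen. Complex I (NADH dehydrogenase) had 39 of them, the NDUFA, NDUFB, NDUFC, NDUFS and NDUFV genes. Complex II (succinate dehydrogenase) had 4, SDHA to SDHD, and complex III (cytochrome bc1) had 10, the UQCR genes with CYC1. Complex IV (cytochrome c oxidase) had 17, the COX4 to COX8 genes, and complex V (ATP synthase) had 21, the ATP5 genes. A few members are not core subunits of the complex they are listed under. NDUFA4 is now regarded as a subunit of complex IV, COX7A2L joins complexes III and IV into supercomplexes, ATP5IF1 is the inhibitor of ATP synthase, and UQCRHL is a close copy of UQCRH.

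The respiratory chain sits in the inner mitochondrial membrane. Complexes I and II pass electrons from NADH and succinate to ubiquinone, complex III passes them to cytochrome c, and complex IV passes them to oxygen. Complexes I, III and IV pump protons as they do so, and complex V lets the protons flow back to make ATP. All of complex II and most subunits of the others are nuclear-encoded, translated in the cytosol and imported, while the rest are made inside the organelle from mitochondrial DNA. Transcription factors NRF1, GABPA (an ETS factor), YY1 and ESRRA and the coactivators of the PGC-1 family are known regulators of the nuclear genes. Palbociclib blocks the cell cycle kinases CDK4 and CDK6, whose main substrate is the retinoblastoma protein RB1. C4-2 derives from the androgen-dependent line LNCaP and has RB1, whereas DU145, from a brain metastasis, is known to lack functional RB1.

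The groups were DU145 cells (Du145 in the labels) with palbociclib, DU145 cells with dimethyl sulfoxide (DMSO, the solvent), C4-2 cells (C42 in the labels) with palbociclib and C4-2 cells with DMSO. All were grown in RPMI-1640 medium with 10% fetal bovine serum, and 3 libraries were labelled for each group. Neither how much palbociclib was given nor for how long is stated in the labels used. The third C4-2 DMSO column held only 0, so 11 libraries were used, with 3 palbociclib against 2 DMSO libraries for C4-2. Nothing in the labels ties the libraries of a group to separate cultures. The spread that a p-value is set against is that between libraries, and it may be technical.

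Total counts ran from 16108999 to 16674393 per DU145 library and from 2608851 to 3489659 per library labelled C4-2. A count of 0 in 1 library allows up to 0.18 to 0.186 CPM (counts scaled to the library total) in DU145 and 0.86 to 1.15 CPM in C4-2, taking 3 counts as the limit and covering counting error only. The luminal prostate genes KLK3, KLK2, ACP3 and FOLH1 were at 0 in all 5 libraries labelled C4-2, which goes against that label, and those libraries are therefore called by it and nothing more. KLK3, KLK2 and FOLH1 were also at 0 in all 6 DU145 libraries. The summed level of 10 luminal genes was 1688 to 1785 CPM under palbociclib and 2330 to 2530 CPM with DMSO in DU145, and 442 to 482 CPM under palbociclib and 1085 to 1097 CPM in DMSO in C4-2. The 11 mesenchymal genes summed to 340 to 354 CPM under palbociclib and 391 to 407 CPM with DMSO in DU145, and to 24705 to 24985 CPM under palbociclib and 27159 to 27219 CPM in DMSO in C4-2. Leukocyte and myofibre markers summed to at most 6.21 CPM in any library. The part of these marker shifts in the results was not tested. In bulk samples, fewer cells of a type and less RNA per cell cannot be told apart. The 2 tables were counted separately, so levels are compared only within a line, and what sets the lines apart cannot be told apart from what sets the tables apart.

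With palbociclib more members fell than rose in C4-2, while in DU145 members were called in both directions. In C4-2, 34 of the 76 tested members fell and 3 rose, which is 44.7% and 3.95% of them. Over all 11943 tested genes 26.6% fell and 25.2% rose, 51.8% in either direction (edgeR quasi-likelihood test, Benjamini-Hochberg adjusted p under 0.05). The median log2 fold change of the members was -0.20, beside 0.0015 over all genes. In DU145, 11 of 81 tested members fell and 21 rose, 13.6% and 25.9%, beside 29.2% and 28.8% of all 15361 tested genes (58.1% in either direction). Their share of rises was thus close to that of all genes and their share of falls was lower, with a median log2 fold change of 0.04 beside -0.0074 over all genes. With DESeq2 the falls in C4-2 numbered 22 in place of 34, which is 28.9% of the members beside 16.7% of all genes in that fit, and without DU145 DMSO replicate 2 the falls in DU145 numbered 7 in place of 11.

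The changes were small. None of the members called in either line changed 2-fold or more, whereas 2055 genes did so in DU145 and 1161 in C4-2. Member log2 fold changes ran from -0.56 to 0.80 in DU145 and from -0.75 to 0.81 in C4-2. The library values of the 2 treatments did not overlap for 31 of the 32 members called in DU145 and for 36 of the 37 called in C4-2. ATP5MD in DU145 and NDUFB4 in C4-2 were the exceptions. These members were picked by their calls, so the separation is not further evidence for them. The share of all called genes without overlap was not counted. In C4-2, falls were more common among abundant members. Of the 38 members above the median CPM 26 fell (68.4%), and of the 38 at or below it 8 fell (21.1%), beside 26.6% of all tested genes. All genes were not split in this way, and their shares given here are not matched to the members on level. Whether the split is particular to the members is therefore not known.

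**Figure D1:**
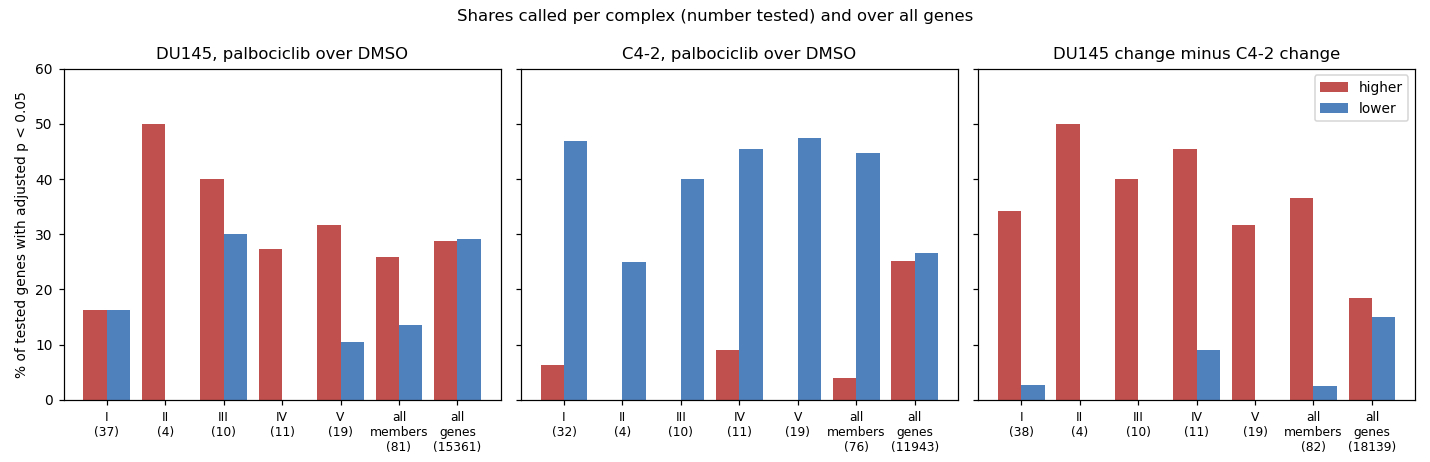
Percentage of tested genes called higher (red) and lower (blue) at an adjusted p under 0.05, per complex, over all members and over all genes, with the number tested in brackets. In C4-2 the members called lower made up 44.7% against 26.6% of all genes, in DU145 13.6% against 29.2%.

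The summed level of each complex is given as values with no test. All 91 members together held 10104 ± 143 CPM under palbociclib and 10090 ± 114 CPM with DMSO in DU145 (SD, n = 3 each). In C4-2 they held 4789 ± 119 CPM with palbociclib (SD, n = 3) and 5636 ± 27.1 CPM with DMSO (SD, n = 2), a ratio of 0.85. Complex V had the lowest ratio in C4-2, with 1957 ± 40.2 CPM under palbociclib and 2422 ± 11.3 CPM under DMSO, or 0.808. Complex III followed at 0.859 and complex I at 0.864, complex IV was at 0.92 and complex II at 0.934. In C4-2 each of the 5 sums was lower in every palbociclib library than in either DMSO library. In DU145 the ratios lay between 0.964 for complex V and 1.08 for complex II, and the libraries of the 2 treatments overlapped for complexes I, III, IV and V. Complex II in DU145 was carried by the flavoprotein SDHA, at 974, 998 and 1014 CPM under palbociclib and 922, 909 and 984 CPM with DMSO, a log2 fold change of 0.11 that was not called.

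The joint fit asked whether the response differed between the lines. Of 82 members tested, 30 had a higher log2 fold change in DU145 than in C4-2 and 2 a lower one, 36.6% and 2.44%, beside 18.4% and 15.0% of all 18139 tested genes (edgeR interaction, adjusted p under 0.05). The median difference was 0.31, beside -0.02 over all genes. Higher differences numbered 13 of 38 in complex I, 2 of 4 in complex II, 4 of 10 in complex III, 5 of 11 in complex IV and 6 of 19 in complex V. The 2 lower ones were NDUFB5 and COX7A2L. Without C4-2 DMSO replicate 1, which leaves 1 DMSO library, the 30 higher members became 20, with 7 in place of 13 in complex I, 1 in place of 2 in complex II and 3 in place of 5 in complex IV. Without C4-2 DMSO replicate 2 only 1 of the lower differences was called. Of the 82, 6 had too few counts to be tested in C4-2 alone, and none of them was called.

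Among the 76 members tested in both lines, 31 had a positive log2 fold change in DU145 and a negative one in C4-2, and 7 had the reverse. Both were positive for 12 and both negative for 26. The DU145 value exceeded the C4-2 value for 57. Neither these sign counts nor the joint calls that follow were counted over all genes. How far they depart from those of all genes is not known. Taken singly, 28.8% of all tested genes rose and 29.2% fell in DU145, and 25.2% rose and 26.6% fell in C4-2. By calls, 8 members rose in DU145 and fell in C4-2, namely NDUFB4, NDUFS5, SDHB, UQCRC1, COX6B1, ATP5MC3, ATP5MF and ATP5PB. The interaction was called for all 8, but they were picked by opposite calls on the same counts, so that outcome was largely fixed beforehand. The 8 come from every one of the 5 complexes. NDUFB5 alone did the reverse, and COX7A2L alone rose in both. Another 6 fell in both lines, NDUFB10, NDUFS1, NDUFS8, UQCRH, ATP5F1D and ATP5MC2. Of these, NDUFS8 lost its DU145 call in 6 of 15 alternatives and UQCRH in 7 of 15, with RLE size factors and DESeq2 among them for both, and NDUFB10 lost its DU145 call in 3 of 15 and its C4-2 call in 5 of 12. The remaining calls were in 1 line. In C4-2, 20 members fell and NDUFA5 rose without a call in DU145. In DU145, 11 rose and 3 fell without a call in C4-2. A further 25 were called in neither line. A call in 1 line is not by itself a difference, and the interaction is the test of it.

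**Figure D2:**
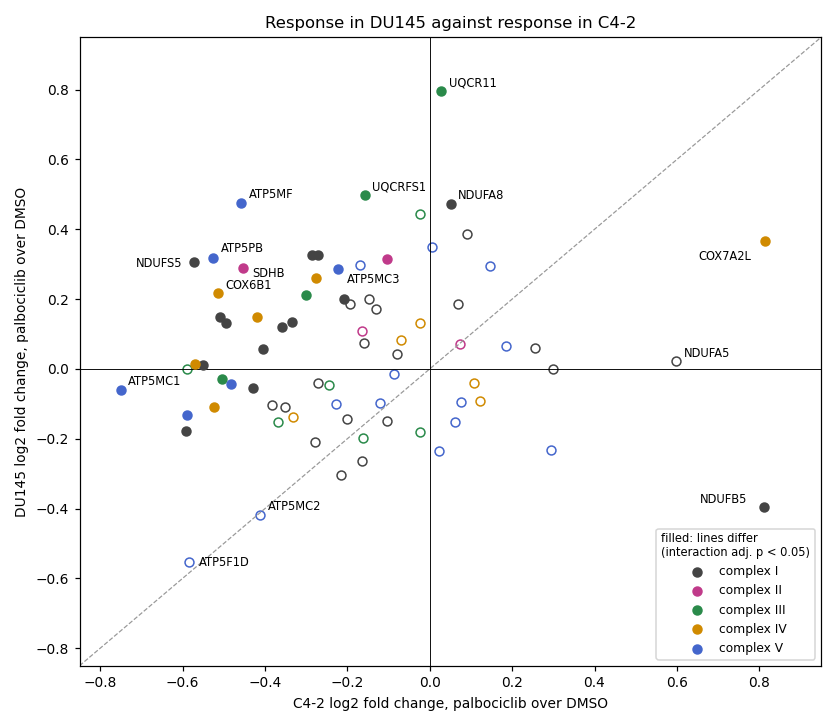
DU145 log2 fold change (vertical axis) against C4-2 log2 fold change (horizontal axis) of the 76 members tested in both lines, coloured by complex, with filled points where the interaction was called and a dashed line at equal change. Most points (57 of 76) lie above the dashed line, and NDUFB5 and COX7A2L lie far to the right.

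**Figure D3:**
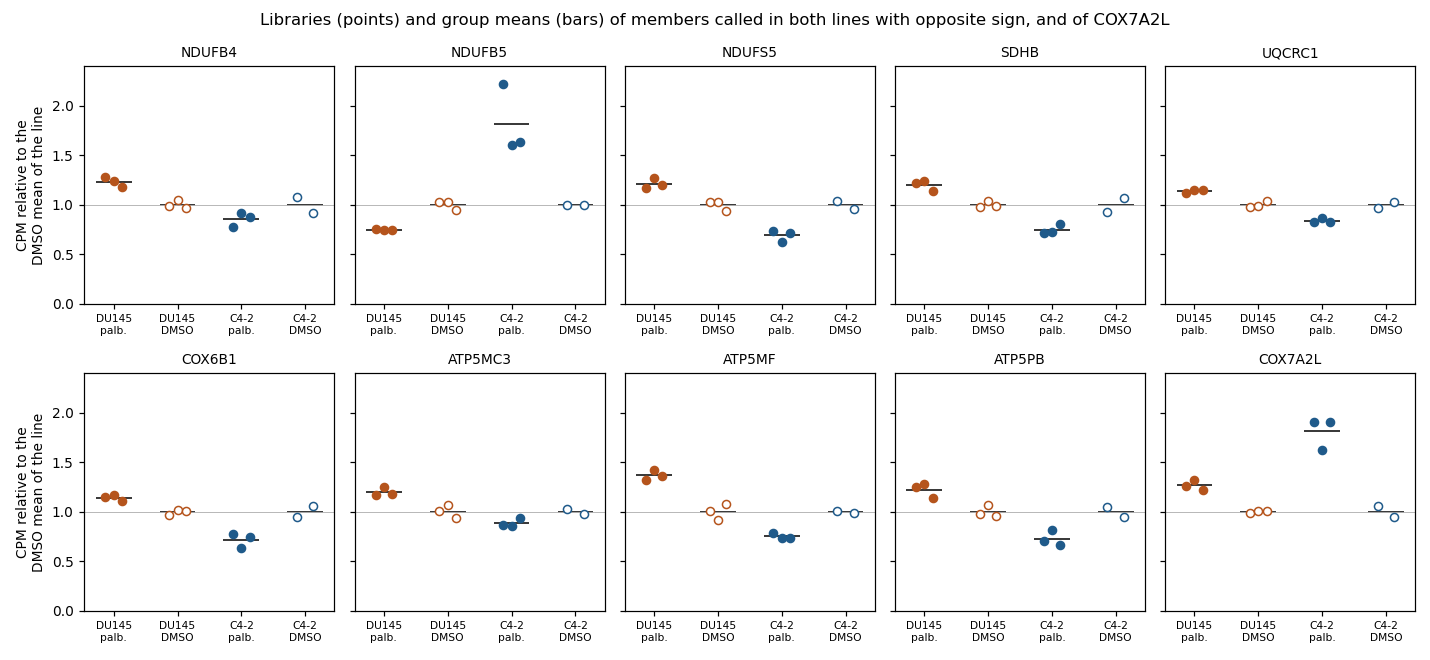
CPM of each library (points) relative to the DMSO mean of its line, with group means (bars), for the 9 members called in opposite directions in the 2 lines and for COX7A2L. Filled points are palbociclib and open points DMSO, orange for DU145 and blue for C4-2. Filled and open points are apart for every gene shown in DU145, and in C4-2 for all but NDUFB4.

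Promoter windows are shown for 4 of the 8 members that rose in DU145 and fell in C4-2, and for COX7A2L, the member that rose in both. They are RefSeq windows of build GRCh38.p14, from 250 bases before to 50 bases after the annotated start, written 5′ to 3′ on the strand of the gene. The windows are chr3:120596086-120596385 for NDUFB4 (plus strand), chr3:48609597-48609896 for UQCRC1 (minus strand), chr1:17053983-17054282 for SDHB (minus strand), chr19:35648073-35648372 for COX6B1 (plus strand) and chr2:42361168-42361467 for COX7A2L (minus strand). Capitals mark the NRF1 motif (GCGC, 1 free base N, then TGCGC, so the full motif with A as that base is included), CCGGAAG (ETS factors such as GABPA) and AAGATGGCG (YY1), each searched on both strands.
NDUFB4: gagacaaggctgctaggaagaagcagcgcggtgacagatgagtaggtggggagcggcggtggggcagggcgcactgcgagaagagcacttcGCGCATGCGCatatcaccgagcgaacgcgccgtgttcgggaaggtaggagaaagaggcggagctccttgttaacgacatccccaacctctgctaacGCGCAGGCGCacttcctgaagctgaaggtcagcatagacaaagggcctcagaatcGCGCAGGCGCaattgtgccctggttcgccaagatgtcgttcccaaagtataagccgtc
UQCRC1: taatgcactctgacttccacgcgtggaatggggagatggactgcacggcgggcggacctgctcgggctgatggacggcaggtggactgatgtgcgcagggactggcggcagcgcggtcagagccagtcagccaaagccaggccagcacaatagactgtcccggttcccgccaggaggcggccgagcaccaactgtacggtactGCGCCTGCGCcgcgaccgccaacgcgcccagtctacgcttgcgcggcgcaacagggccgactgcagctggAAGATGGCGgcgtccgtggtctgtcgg
SDHB: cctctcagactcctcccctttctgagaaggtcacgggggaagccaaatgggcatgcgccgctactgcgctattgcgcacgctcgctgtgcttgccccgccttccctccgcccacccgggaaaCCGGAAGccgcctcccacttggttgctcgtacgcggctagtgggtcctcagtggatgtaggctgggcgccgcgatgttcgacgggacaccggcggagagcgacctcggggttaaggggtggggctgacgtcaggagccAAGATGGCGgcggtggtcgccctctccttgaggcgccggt
COX6B1: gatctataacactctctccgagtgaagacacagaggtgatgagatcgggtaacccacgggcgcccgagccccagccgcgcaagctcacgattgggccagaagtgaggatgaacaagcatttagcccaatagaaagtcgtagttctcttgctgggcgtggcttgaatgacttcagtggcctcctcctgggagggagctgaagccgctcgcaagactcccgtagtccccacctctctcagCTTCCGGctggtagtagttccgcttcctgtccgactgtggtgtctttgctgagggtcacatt
COX7A2L: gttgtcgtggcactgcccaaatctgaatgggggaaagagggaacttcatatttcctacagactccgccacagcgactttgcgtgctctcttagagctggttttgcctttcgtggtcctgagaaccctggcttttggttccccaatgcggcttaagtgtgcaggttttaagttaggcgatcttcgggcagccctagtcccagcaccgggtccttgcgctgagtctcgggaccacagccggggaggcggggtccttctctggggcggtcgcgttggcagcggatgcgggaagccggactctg
The NDUFB4 window held the NRF1 letters at 3 places, 1 of them the full motif, the UQCRC1 window held NRF1 and YY1 letters, the SDHB window held ETS and YY1 letters, and the COX6B1 window held ETS letters on the other strand. None of these 3 sets of letters is in the COX7A2L window. None is in the window of ATP5PB either, which is another of the 8 members and is not shown. No window was matched for NDUFS5, ATP5MC3 and ATP5MF, the rest of the 8.

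Complex I takes electrons from NADH through a peripheral arm that holds the flavin and the iron-sulfur clusters, and pumps protons through a membrane arm. In DU145, 6 of its 37 tested members rose and 6 fell, 16.2% each, below the 28.8% and 29.2% of all tested genes. With both libraries numbered 3 left out, 10 rose. In C4-2, 2 of 32 rose and 15 fell, 6.25% and 46.9%, beside 25.2% and 26.6% of all tested genes. The 15 falls became 7 with DESeq2 and 9 with libraries scaled by their totals alone. In C4-2 the falls included the peripheral-arm core subunits NDUFS1, NDUFS3, NDUFS8 and NDUFV1. NDUFS8, an iron-sulfur subunit, fell by 0.59 ± 0.12 on the log2 scale in C4-2 (edgeR adjusted p = 0.000107). Its 3 palbociclib libraries held 26.6, 26.8 and 29.6 CPM, and its 2 DMSO libraries 40.7 and 40.5 CPM. NDUFS1, the largest iron-sulfur subunit, fell in both lines. It was at 135, 139 and 126 CPM under palbociclib and 171, 170 and 162 CPM with DMSO in DU145 (log2 fold change -0.30 ± 0.065, edgeR adjusted p = 0.00061). In C4-2 it was at 154, 149 and 149 CPM under palbociclib and 163 and 177 CPM with DMSO (-0.21 ± 0.062, edgeR adjusted p = 0.00353). The C4-2 call of NDUFS1 was lost without DMSO replicate 2 and with DESeq2, with adjusted p from 0.00196 to 0.0789 over 12 alternatives.

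NDUFB5, an accessory subunit of the membrane arm (ENSG00000136521, hg38 chr3:179604690-179627647, plus strand), changed in opposite directions in the 2 lines. In DU145 it was at 54.8, 54.5 and 54.2 CPM under palbociclib and 74.7, 74.9 and 69.2 CPM with DMSO, a log2 fold change of -0.40 ± 0.071 (SE, edgeR adjusted p = 0.000113). Its C4-2 libraries were at 22.8, 16.5 and 16.9 CPM under palbociclib and 10.3 and 10.3 CPM with DMSO, a log2 fold change of 0.81 ± 0.21 (SE, edgeR adjusted p = 0.00101). All palbociclib libraries were below the DMSO libraries in DU145, and all were above them in C4-2. The difference between the lines, DU145 minus C4-2, was -1.18 ± 0.21 (edgeR interaction, adjusted p = 2.93e-05), the lowest of the members called. NDUFA5, of the peripheral arm, was the other complex I member to rise in C4-2. It held 55.0, 37.6 and 46.5 CPM under palbociclib and 31.8 and 27.5 CPM with DMSO there (log2 fold change 0.60 ± 0.13, edgeR adjusted p = 0.000239), and its DU145 value was 0.02 ± 0.12, which was not called. Its difference between the lines was not called (-0.54 ± 0.22, edgeR interaction, adjusted p = 0.0539). That difference was called lower with RLE size factors, library totals and DESeq2, among other alternatives. The DU145 table holds 12 pseudogene rows named after NDUFA5 and 2 after NDUFB5, and how reads were shared with such copies was not tested in either line.

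NDUFS5, an accessory subunit on the intermembrane side (ENSG00000168653, hg38 chr1:39026318-39034636, plus strand), rose in DU145 and fell in C4-2. In DU145 it was at 148, 160 and 152 CPM under palbociclib and 130, 131 and 118 CPM with DMSO, a log2 fold change of 0.31 ± 0.066 (SE, edgeR adjusted p = 0.00068). C4-2 libraries held it at 91.4, 77.0 and 88.2 CPM under palbociclib and 128 and 119 CPM with DMSO, a log2 fold change of -0.57 ± 0.078 (SE, edgeR adjusted p = 4.16e-08). The treatments did not overlap in either line. NDUFB4, of the membrane arm, likewise rose in DU145, at 143, 138 and 132 CPM with palbociclib against 110, 117 and 108 CPM with DMSO (log2 fold change 0.33 ± 0.066, edgeR adjusted p = 0.000368). In C4-2 it was called lower at -0.27 ± 0.10 (SE, edgeR adjusted p = 0.025), although 1 palbociclib library, at 56.7 CPM, lay just above a DMSO library at 56.4 CPM. That call was lost in 4 of 12 alternatives, and the value was -0.14 without C4-2 DMSO replicate 1, with adjusted p from 0.00576 to 0.424. Among the other rises in DU145, NDUFA8, a subunit with cysteine pairs that faces the intermembrane space, held 129, 124 and 122 CPM under palbociclib and 91.1, 91.6 and 91.8 CPM with DMSO (log2 fold change 0.47 ± 0.065, edgeR adjusted p = 6.74e-06). Its C4-2 libraries overlapped. NDUFA11, of the membrane arm, rose by 0.39 ± 0.11 on the log2 scale in DU145 (edgeR adjusted p = 0.00596). NDUFA13, also known as GRIM-19, had the largest complex I rise in DU145 at 0.48 ± 0.19 (SE, edgeR adjusted p = 0.0384), but at only 3.76 to 4.50 CPM under palbociclib and 2.81 to 3.10 CPM with DMSO. It lost its call under 8 of 15 alternatives, among them 5 of the 6 fits without 1 library, with adjusted p from 0.0352 to 0.194.

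NDUFA4L2, the hypoxia-induced relative of NDUFA4, fell the most of all members in DU145. It was at 36.1, 32.3 and 37.1 CPM under palbociclib and 55.4, 45.4 and 57.3 CPM with DMSO (log2 fold change -0.56 ± 0.096, edgeR adjusted p = 8.08e-05). In C4-2 it had at most 0.383 CPM in any library and was not tested. NDUFA4 itself was called lower in C4-2, at 69.2, 59.8 and 76.1 CPM under palbociclib and 84.0 and 90.5 CPM with DMSO there (log2 fold change -0.38 ± 0.090, edgeR adjusted p = 0.000459). Its DU145 change was -0.10 ± 0.069, and the difference between the lines was not called (0.32 ± 0.13, edgeR adjusted p = 0.0548).

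**Figure D4:**
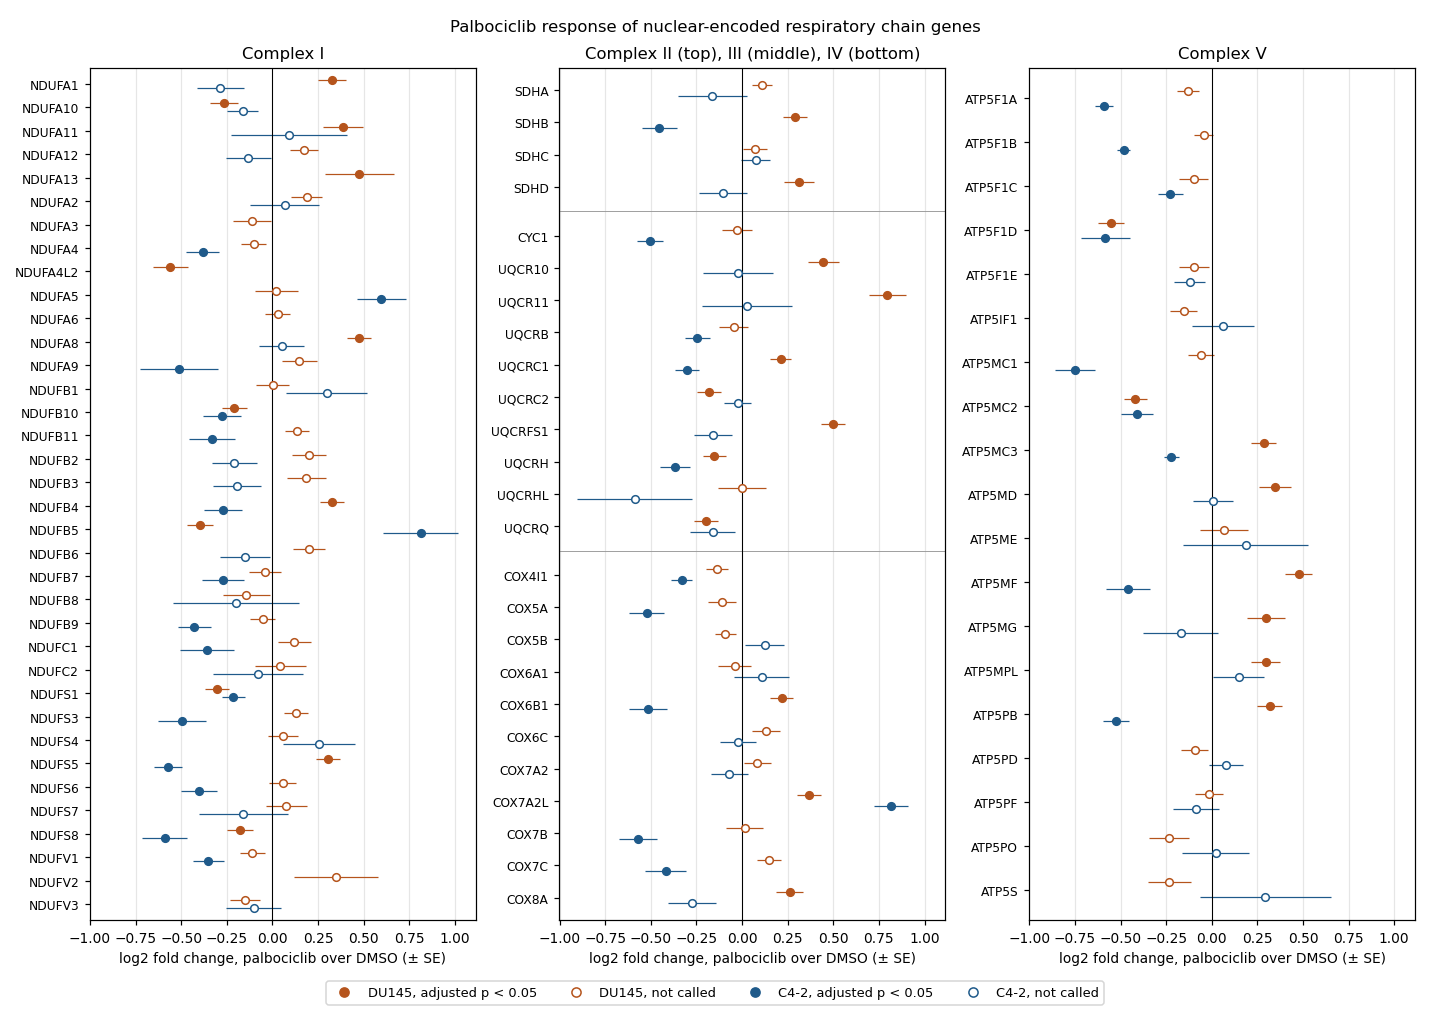
Log2 fold change of palbociclib over DMSO with its SE for members tested in at least 1 line, in DU145 (orange) and C4-2 (blue), with filled points for an edgeR adjusted p under 0.05. Filled blue points lie mostly left of 0, with NDUFA5 and NDUFB5 in complex I and COX7A2L in complex IV on the right.

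Complex II links the citric acid cycle to the chain. In DU145, 2 of its 4 members rose and none fell, beside 28.8% and 29.2% of all tested genes. In C4-2, none of the 4 rose and 1 fell, beside 25.2% and 26.6%. The share of falls in C4-2 was thus near that of all genes. The iron-sulfur subunit SDHB (ENSG00000117118, hg38 chr1:17018722-17054170, minus strand) accounted for a call in both lines. In DU145 it was at 118, 119 and 110 CPM under palbociclib and 94.3, 99.4 and 94.7 CPM with DMSO, a log2 fold change of 0.29 ± 0.067 (SE, edgeR adjusted p = 0.00118). The C4-2 values were 51.6, 52.5 and 58.3 CPM under palbociclib and 67.3 and 77.6 CPM with DMSO, a log2 fold change of -0.45 ± 0.097 (SE, edgeR adjusted p = 0.000126). The libraries were apart in both lines, in opposite directions. SDHD, which anchors the enzyme in the membrane, rose in DU145 to 46.1, 45.5 and 39.9 CPM with palbociclib, against 35.2, 36.5 and 35.9 CPM with DMSO (log2 fold change 0.31 ± 0.082, edgeR adjusted p = 0.00331). SDHD overlapped between treatments in C4-2. The other anchor, SDHC, was not called in either line, with log2 fold changes of 0.07 in DU145 and 0.07 in C4-2. SDHA was not called in C4-2 either, where it averaged 15.6 ± 2.24 CPM (SD, n = 3) under palbociclib and 16.9 ± 2.39 CPM (SD, n = 2) in DMSO.

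Complex III carries electrons from ubiquinol to cytochrome c through cytochrome b, cytochrome c1 and the Rieske iron-sulfur protein. In DU145, 4 of its 10 members rose and 3 fell, 40.0% and 30.0%, beside 28.8% and 29.2% of all tested genes. In C4-2, none rose and 4 fell, 0.0% and 40.0%, beside 25.2% and 26.6%. The largest DU145 rise of the whole set was that of UQCR11, a small subunit of the complex (hg38 chr19:1597172-1605490, minus strand). It held 26.9, 26.1 and 27.8 CPM under palbociclib and 15.0, 14.8 and 17.5 CPM with DMSO, a log2 fold change of 0.80 ± 0.10 (SE, edgeR adjusted p = 2.93e-06). In C4-2 it was at 8.29 to 11.9 CPM under palbociclib and 8.62 to 9.74 CPM with DMSO, so the libraries overlapped. The difference between the lines was 0.80 ± 0.26 (edgeR interaction, adjusted p = 0.0172), and was lost without C4-2 palbociclib replicate 3, without C4-2 DMSO replicate 1 and in 1 other of the 17 alternatives, with adjusted p from 0.00735 to 0.152. The Rieske protein UQCRFS1 rose in DU145 as well, at 168, 159 and 156 CPM under palbociclib and 119, 116 and 113 CPM with DMSO (log2 fold change 0.50 ± 0.064, edgeR adjusted p = 3.23e-06). Its C4-2 libraries were at 46.7 to 60.2 CPM under palbociclib and 57.9 to 60.4 CPM with DMSO, and the treatments overlapped. UQCR10, another small subunit, rose by 0.44 ± 0.086 on the log2 scale in DU145 (edgeR adjusted p = 0.000254).

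The core protein UQCRC1 rose in DU145, at 478, 492 and 490 CPM under palbociclib and 416, 423 and 443 CPM with DMSO (log2 fold change 0.21 ± 0.059, edgeR adjusted p = 0.00478). It fell in C4-2, at 131, 137 and 131 CPM under palbociclib and 154 and 163 CPM with DMSO (log2 fold change -0.30 ± 0.064, edgeR adjusted p = 0.000119). Its partner UQCRC2 was called lower in DU145, at 178, 183 and 157 CPM under palbociclib and 202, 205 and 192 CPM with DMSO (log2 fold change -0.18 ± 0.068, edgeR adjusted p = 0.03), and in C4-2 it was at 115 to 126 CPM under palbociclib and 112 to 126 CPM with DMSO, which was not called. The small subunit UQCRQ and the hinge protein UQCRH were the other DU145 falls, at -0.20 ± 0.065 (edgeR adjusted p = 0.0146) and -0.15 ± 0.063 (edgeR adjusted p = 0.0449). Without DMSO replicate 2 no member of the complex was called lower in DU145, and leaving out palbociclib replicate 2, palbociclib replicate 3 or DMSO replicate 1 left only 1 member of the complex called lower. UQCRH also fell in C4-2, at 89.3, 75.9 and 90.0 CPM under palbociclib and 103 and 111 CPM with DMSO (log2 fold change -0.37 ± 0.081, edgeR adjusted p = 0.00018). Of the 4 complex III members that fell in C4-2, the largest change was that of CYC1, cytochrome c1, at 101, 103 and 95.0 CPM under palbociclib and 142 and 131 CPM with DMSO (log2 fold change -0.51 ± 0.072, edgeR adjusted p = 1.2e-07). CYC1 overlapped between treatments in DU145.

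Complex IV reduces oxygen to water with copper and haem centres held in mitochondrially encoded subunits, around which the nuclear subunits are placed. In DU145, 3 of its 11 tested members rose and none fell, although COX4I1 was called lower with library totals and without both libraries numbered 3. These are 27.3% and 0.0%, beside 28.8% and 29.2% of all tested genes, so the share of rises was near that of all genes. In C4-2, 1 rose and 5 fell, 9.09% and 45.5%, beside 25.2% and 26.6%. COX7A2L (ENSG00000115944, hg38 chr2:42333546-42425088, minus strand), the supercomplex factor, rose in both lines and was the only member to do so. In DU145 it was at 111, 117 and 108 CPM under palbociclib and 87.2, 89.0 and 88.7 CPM with DMSO, a log2 fold change of 0.37 ± 0.066 (SE, edgeR adjusted p = 0.000139). C4-2 libraries held it at 105, 88.9 and 105 CPM under palbociclib and 57.9 and 51.7 CPM with DMSO, a log2 fold change of 0.81 ± 0.092 (SE, edgeR adjusted p = 5.92e-10), the largest rise of the set there. No palbociclib library overlapped a DMSO library in either line. The rise was smaller in DU145 by 0.41 ± 0.12 (edgeR interaction -0.41, adjusted p = 0.00941). That difference was -0.32 and not called without C4-2 DMSO replicate 2, with adjusted p from 0.00115 to 0.121 over 17 alternatives.

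COX6B1, which faces the docking site of cytochrome c, rose in DU145, at 135, 137 and 131 CPM under palbociclib and 114, 120 and 119 CPM with DMSO (log2 fold change 0.22 ± 0.065, edgeR adjusted p = 0.00799). It fell in C4-2, at 49.1, 39.9 and 47.1 CPM under palbociclib and 59.9 and 66.7 CPM with DMSO (log2 fold change -0.51 ± 0.10, edgeR adjusted p = 6.79e-05). The DU145 rise was 0.18 and not called without DMSO replicate 1, with adjusted p from 0.000102 to 0.0672 over 15 alternatives. COX8A, a small accessory subunit, rose by 0.26 ± 0.075 on the log2 scale in DU145 (edgeR adjusted p = 0.00642), a call that was lost without DMSO replicate 2, with adjusted p from 6.9e-06 to 0.0518 over 15 alternatives. Its C4-2 value of -0.28 ± 0.13 was not called (edgeR adjusted p = 0.0752). COX7B, an accessory subunit, had the largest complex IV fall in C4-2, at 47.8, 43.7 and 44.7 CPM under palbociclib and 69.6 and 60.4 CPM with DMSO (log2 fold change -0.57 ± 0.10, edgeR adjusted p = 9.82e-06). COX5A, a subunit on the matrix side, was at 52.3, 46.8 and 55.9 CPM under palbociclib and 71.4 and 73.6 CPM with DMSO there (log2 fold change -0.52 ± 0.096, edgeR adjusted p = 1.43e-05). Neither COX7B nor COX5A was called in DU145, and both overlapped between treatments.

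Several complex IV genes come as a widely expressed and a tissue-restricted form. The widely expressed COX4I1 was at 253 to 269 CPM under palbociclib and 281 to 298 CPM with DMSO in DU145, which was not called (log2 fold change -0.14 ± 0.061, edgeR adjusted p = 0.0652, and from 0.00298 to 0.199 over 15 alternatives). In C4-2 it fell, at 182, 174 and 200 CPM under palbociclib and 226 and 228 CPM with DMSO (-0.33 ± 0.058, edgeR adjusted p = 5.24e-06). COX4I2, its hypoxia and lung form, had at most 0.243 CPM in any library. COX6A1 and COX7A2 were not called in either line, with log2 fold changes between -0.07 and 0.11. Of the heart and muscle forms, COX6A2 was at 0 in all 11 libraries, and COX7A1 had at most 0.592 CPM. COX6B2, COX7B2 and COX8C, which are known mainly from testis, had at most 0.888, 0 and 0.124 CPM. None of these restricted forms had enough counts to be tested.

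Complex V joins a catalytic head, a rotating central stalk and ring, and a peripheral stalk that holds the head still. In DU145, 6 of its 19 tested members rose and 2 fell, and 4 fell without DMSO replicate 3 or with library totals. The 6 and 2 are 31.6% and 10.5%, beside 28.8% and 29.2% of all tested genes, so the share of rises was near that of all genes. In C4-2, none rose and 9 fell, 0.0% and 47.4%, beside 25.2% and 26.6%. The member with the highest level per kilobase in DU145, ATP5F1B, encodes the catalytic beta subunit. It was at 1382, 1405 and 1339 CPM under palbociclib and 1433, 1452 and 1439 CPM with DMSO in DU145, which was not called (log2 fold change -0.04 ± 0.052). The C4-2 values were 498, 487 and 525 CPM under palbociclib and 676 and 689 CPM with DMSO (log2 fold change -0.48 ± 0.037, edgeR adjusted p = 8.79e-15). The alpha subunit ATP5F1A also fell in C4-2, at 225, 237 and 229 CPM under palbociclib and 338 and 333 CPM with DMSO (log2 fold change -0.59 ± 0.048, edgeR adjusted p = 5.38e-14). In DU145 its change was -0.13 ± 0.062 and was not called (edgeR adjusted p = 0.0779, and from 0.00331 to 0.238 over 15 alternatives). With library totals, among other alternatives, it was called lower there. Both differences between the lines were called, at 0.48 ± 0.073 for ATP5F1B (edgeR interaction, adjusted p = 3.41e-06) and 0.49 ± 0.087 for ATP5F1A (adjusted p = 3.45e-05). The delta subunit of the central stalk, ATP5F1D (hg38 chr19:1241746-1244826, plus strand), fell in both lines. In DU145 it was at 77.6, 76.5 and 87.5 CPM under palbociclib and 120, 120 and 120 CPM with DMSO (log2 fold change -0.55 ± 0.071, edgeR adjusted p = 3.48e-06). In C4-2 it was at 26.3, 22.2 and 25.8 CPM under palbociclib and 37.0 and 35.1 CPM with DMSO (-0.58 ± 0.13, edgeR adjusted p = 0.00028). The difference was 0.07 ± 0.15 (edgeR interaction, adjusted p = 0.829), which does not show that the lines respond alike.

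The genes ATP5MC1, ATP5MC2 and ATP5MC3 encode the same mature subunit c of the rotor ring, and each had its own pattern. ATP5MC1 (hg38 chr17:48892765-48895871, plus strand) had the largest fall of the set in C4-2, at 34.3, 33.0 and 33.7 CPM under palbociclib and 55.9 and 53.7 CPM with DMSO (log2 fold change -0.75 ± 0.11, edgeR adjusted p = 2.61e-07). In DU145 it was at 71.3 to 74.5 CPM under palbociclib and 72.0 to 80.9 CPM with DMSO and was not called. ATP5MC2 fell in both lines, at 160, 148 and 157 CPM under palbociclib and 213, 222 and 197 CPM with DMSO in DU145 (log2 fold change -0.42 ± 0.065, edgeR adjusted p = 2.94e-05). Its C4-2 libraries were at 60.2, 64.4 and 63.1 CPM under palbociclib and 79.7 and 81.6 CPM with DMSO (-0.41 ± 0.088, edgeR adjusted p = 0.000125). ATP5MC3 rose in DU145, at 124, 133 and 125 CPM under palbociclib and 107, 113 and 99.1 CPM with DMSO (log2 fold change 0.29 ± 0.068, edgeR adjusted p = 0.00165). It fell in C4-2, where it was the most abundant of these genes per kilobase, at 488, 478 and 524 CPM under palbociclib and 577 and 547 CPM with DMSO (-0.22 ± 0.040, edgeR adjusted p = 1.11e-05). The difference between the lines was called for ATP5MC1 (0.72 ± 0.14, edgeR adjusted p = 8.16e-05) and ATP5MC3 (0.54 ± 0.092, edgeR adjusted p = 1.66e-05) and not for ATP5MC2 (0.03 ± 0.12).

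The rises of complex V in DU145 were those of ATP5PB, ATP5MF, ATP5MD, ATP5MG, ATP5MPL and ATP5MC3. The other peripheral stalk members ATP5PD, ATP5PF and ATP5PO were not called there, with log2 fold changes of -0.09, -0.02 and -0.23. ATP5MC2, of the rotor ring, fell. ATP5MF, subunit f (hg38 chr7:99448475-99466331, minus strand), was at 115, 124 and 119 CPM under palbociclib and 87.8, 79.5 and 93.6 CPM with DMSO, a log2 fold change of 0.48 ± 0.075 (SE, edgeR adjusted p = 3.4e-05). C4-2 libraries held it at 32.9, 30.7 and 30.8 CPM under palbociclib and 42.1 and 41.4 CPM with DMSO, a log2 fold change of -0.46 ± 0.12 (SE, edgeR adjusted p = 0.00144). The treatments were apart in both lines, and the difference of 0.97 ± 0.15 was the largest positive one of the members called (edgeR interaction, adjusted p = 2.96e-06). With DESeq2 the C4-2 fall of ATP5MF was not called, with adjusted p from 0.0014 to 0.0597 over 12 alternatives. ATP5PB, the b subunit of the peripheral stalk, was at 241, 246 and 219 CPM under palbociclib and 187, 205 and 184 CPM with DMSO in DU145 (log2 fold change 0.32 ± 0.067, edgeR adjusted p = 0.000547). The C4-2 values were 117, 135 and 110 CPM under palbociclib and 175 and 159 CPM with DMSO (-0.52 ± 0.071, edgeR adjusted p = 4.26e-08). ATP5MD, a small subunit also called DAPIT, rose in DU145 by 0.35 ± 0.087 (edgeR adjusted p = 0.00223), with 1 palbociclib library at 85.6 CPM below a DMSO library at 86.3 CPM. The inhibitor ATP5IF1 was at 119 to 144 CPM under palbociclib and 145 to 148 CPM with DMSO in DU145, which was not called (log2 fold change -0.15 ± 0.074, edgeR adjusted p = 0.0856, and from 0.000272 to 0.378 over 15 alternatives). It was called lower there with library totals and without palbociclib replicate 3, among other alternatives. In C4-2 it was at 18.6 to 21.1 CPM under palbociclib and 16.6 to 20.2 CPM with DMSO, and it was not called there.

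Windows were matched for 70 of the 91 members. The NRF1 motif with 1 free base was in 24.3% of them, beside 11.4% of the 10867 windows of genes tested in DU145 and 5.78% of all 35116 windows, which also cover noncoding genes. CCGGAAG was in 28.6%, beside 18.8% and 10.3%, and AAGATGGCG in 12.9%, beside 3.85% and 1.75%. CCAAT, a general promoter element, was in 35.7% of members and 36.3% of tested genes, and TTTGAA, the CHR element of cell cycle genes, in 1.43% and 9.83%. Among the members called higher in DU145, 9 of 18 windows held the NRF1 motif with the free base, beside 12.4% of the 3259 windows of all genes called higher there. The same number, 9 of 18, held CCGGAAG, beside 23.3%. Of the 24 windows of members called lower in C4-2, 16.7% held that NRF1 motif and 29.2% CCGGAAG, and of the 36 tested but not called lower there, 30.6% and 33.3%. UQCR11, UQCRFS1, UQCR10, NDUFA8, NDUFA11, SDHD, ATP5MPL, NDUFB4 and UQCRC1 are the 9 risen members with the NRF1 letters. A match is a run of letters and does not show that a factor binds.

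Levels within the set spanned a wide range. Per kilobase of annotated exon in DU145 cells with DMSO, ATP5F1B led at 621 ± 4.09 CPM per kilobase (SD, n = 3), followed by NDUFS5 at 230 ± 12.5, COX8A at 204 ± 18.2, NDUFS6 at 199 ± 3.13 and COX5B at 174 ± 2.94. NDUFS6, a zinc-binding subunit of the peripheral arm, and COX5B, a matrix-side subunit of complex IV, were not called in DU145. In C4-2 NDUFS6 fell (log2 fold change -0.40 ± 0.10, edgeR adjusted p = 0.00076) and COX5B did not pass (0.12 ± 0.11).

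At the other end, 10 members were tested in neither line and 5 in DU145 only. NDUFA6, a subunit of the peripheral arm, was at 0 counts in all 5 libraries labelled C4-2, while in DU145 it was at 66.9 to 73.1 CPM under palbociclib and 68.9 to 71.5 CPM with DMSO. NDUFA3, of the membrane arm, had at most 0.332 CPM in C4-2 and averaged 15.5 ± 0.578 CPM under palbociclib and 17.0 ± 1.39 CPM in DMSO in DU145 (SD, n = 3 each). In the deposited annotation NDUFA6 overlaps AL021878.2 on the same strand, and the part of such overlaps in these counts was not tested. In all, by the annotation of the DU145 table, 33 members overlap another gene on the same strand and 45 one on the opposite strand, and 45 share their name with 159 pseudogene rows. The header of the C4-2 table gives no strand option, and no strand setting is stated for DU145. In C4-2, members with a named pseudogene numbered 22 falls and 2 rises among 43 tested (51.2% and 4.65%). Those without one numbered 12 falls and 1 rise among 33 (36.4% and 3.03%), beside 26.6% and 25.2% of all tested genes. In DU145 members with one numbered 5 falls and 10 rises among 45 (11.1% and 22.2%). Those without one numbered 6 falls and 11 rises among 36 (16.7% and 30.6%), beside 29.2% and 28.8% of all tested genes.

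Genes that make or serve the chain were counted in the same fits. The 13 mitochondrially encoded subunits were all listed at 0 in the C4-2 table, as were all 37 genes of mitochondrial DNA, so they can be described in DU145 alone. There 10 of the 13 fell (76.9%, beside 29.2% of all tested genes), none rose, and the median log2 fold change was -0.43. MT-CO1, the catalytic subunit of complex IV, was at 7570 ± 113 CPM under palbociclib and 12507 ± 737 CPM with DMSO (SD, n = 3 each), a log2 fold change of -0.70 ± 0.048 (SE, edgeR adjusted p = 1.42e-09). MT-CO2, which receives electrons from cytochrome c, was at -0.57 ± 0.056, MT-CO3 at -0.44 ± 0.061 and MT-ND4, a proton-pumping subunit of complex I, at -0.44 ± 0.054 on the same log2 scale. Genes of mitochondrial DNA took 3.07% to 3.37% of counts with palbociclib and 4.40% to 4.92% with DMSO. Leaving the mitochondrial genes out of the table also gave 21 rises and 11 falls of nuclear members.

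Of 12 nuclear regulators, 8 rose and none fell in DU145 among 12 tested, 66.7% and 0.0%, beside 28.8% and 29.2% of all genes. In C4-2, 1 rose and 6 fell among 11 tested, 9.09% and 54.5%, beside 25.2% and 26.6%. When C4-2 palbociclib replicate 1 was left out, 2 rose there. PPRC1, a PGC-1 family coactivator, was at 119 ± 1.91 CPM under palbociclib and 63.7 ± 2.20 CPM with DMSO in DU145 (log2 fold change 0.93 ± 0.069, edgeR adjusted p = 3.75e-09). Its C4-2 libraries were at 50.3 ± 2.25 CPM (n = 3) with palbociclib and 78.5 ± 10.2 CPM (n = 2) with DMSO (-0.70 ± 0.098, edgeR adjusted p = 8.95e-08). HCFC1, a cofactor of GABPA, was at 0.42 ± 0.090 in DU145 and -0.97 ± 0.073 in C4-2 on the log2 scale (edgeR adjusted p = 0.000564 and 4.85e-15). NRF1, named after its values were seen, rose by 0.25 ± 0.090 in DU145 and was at -0.56 ± 0.16 in C4-2 (edgeR adjusted p = 0.0257 and 0.00299). The differences between the lines were called for all 3, at 1.66 for PPRC1, 1.42 for HCFC1 and 0.84 for NRF1. PPARGC1A, which encodes PGC-1 alpha, rose in DU145 to 19.1 ± 2.16 CPM with palbociclib, against 9.02 ± 1.02 CPM with DMSO (log2 fold change 1.11 ± 0.12), and averaged 0.782 CPM under palbociclib and 0.143 CPM with DMSO in C4-2. MYC rose by 0.47 ± 0.063 in DU145. In C4-2 YY1 rose by 0.26 ± 0.046, the one rise of the list, and CHCHD2, a regulator of complex IV genes, was at -0.30 ± 0.061.

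Of 16 genes that copy, transcribe or translate mitochondrial DNA, 5 rose and 3 fell in DU145 among 16 tested. These are 31.2% and 18.8%, beside 28.8% and 29.2% of all genes. In C4-2, 1 rose and 7 fell among 15 tested, 6.67% and 46.7%, beside 25.2% and 26.6%. That 1 rise was not called without C4-2 palbociclib replicate 1, without C4-2 DMSO replicate 1 or with DESeq2. TFAM, which packages mitochondrial DNA and starts its transcription, rose by 0.33 ± 0.081 in DU145 and was at -0.47 ± 0.098 in C4-2 (edgeR adjusted p = 0.00203 and 7.37e-05). The helicase TWNK and the transcription factor TFB2M rose in DU145 by 0.90 ± 0.076 and 0.76 ± 0.093. The RNA polymerase POLRMT, the DNA polymerase POLG and the elongation factor TUFM fell in C4-2 by 0.56, 0.46 and 0.49 on the log2 scale. In DU145 the translation factors MTIF2 and GFM2 fell by 0.50 and 0.66. The 54 assembly factors, which build the complexes without staying in them, were called in both directions, with 14 rises and 12 falls among 52 tested in DU145 and 12 rises and 8 falls among 47 in C4-2. These are 26.9% and 23.1% in DU145, beside 28.8% and 29.2% of all genes, and 25.5% and 17.0% in C4-2, beside 25.2% and 26.6%, so the shares of rises lay near those of all genes. The C4-2 counts were 5 and 1 with DESeq2 and 7 and 4 without C4-2 DMSO replicate 1, and without palbociclib replicate 2 the falls numbered 5. In DU145 COA7, a complex IV assembly factor, was at 190 ± 4.50 CPM under palbociclib and 80.2 ± 0.710 CPM with DMSO (log2 fold change 1.27 ± 0.064, edgeR adjusted p = 3.93e-11). TMEM186 of complex I (1.06 ± 0.10), COX19 of complex IV (0.98 ± 0.083) and UQCC1 of complex III (0.94 ± 0.069) rose there too. In C4-2 UQCC2 fell by 1.10 ± 0.18, while SDHAF4 (1.54 ± 0.39), COA5 (0.86 ± 0.18) and COX19 (0.67 ± 0.16) rose.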

How the data were processed

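RNA sequencing counts per gene were analysed for 11 of 12 libraries from 2 prostate cancer lines. The authors deposited raw counts, 1 table per line. Per the file headers, C4-2 counts came from featureCounts 2.0.1 on exons of Ensembl annotation 107, without a strand option. Per the submitters' processing notes the build was hg38, and no source used here names the aligner, counter or strand setting for DU145. Per the labels' protocols, libraries were made from 1.3 µg total RNA with a directional kit. The third C4-2 DMSO column, all 0, was left out.

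Each line was fitted on its whole table with edgeR 4.0.16 in R 4.3.3 (filterByExpr, TMM scaling, quasi-likelihood F test, Benjamini-Hochberg adjusted p under 0.05), and a joint fit of genes in both tables gave the difference between lines. SEs are the coefficient divided by the root of F. CPM used library totals. The fits were tested on simulated counts. Alternatives were DESeq2 1.42.0, RLE size factors, library totals, other filters, genes in both tables, mitochondrial genes left out, the replicate number as a block and each library left out.

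The members and lists were chosen with earlier results of these data known. Named with values were the up to 3 called members with the largest rise and fall per line and complex, gene families with alternative forms, the up to 6 largest called differences between lines in each direction, the 5 highest levels per kilobase, and up to 4 called genes with the smallest adjusted p per line from each list. NDUFB4, SDHA, SDHC, NDUFA6, NDUFA3, ATP5PD, ATP5PF, ATP5PO, the C4-2 value of COX5B and NRF1 fall outside this rule or were added after their values were seen. The values of 1 complex I member are not reported here, although counts over the set include it. Promoter windows were matched by symbol to a RefSeq table of GRCh38.p14.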

Additional observations from a re-analysis of the deposited data

Results flagged for a closer look

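The log2 fold change with palbociclib differed between DU145 and C4-2 for 32 members by the interaction test of edgeR (adjusted p under 0.05), which is why 31 of them are listed here with DU145 minus C4-2 differences. In complex I the higher differences were 0.91 for NDUFS5, 0.69 for NDUFA9, 0.66 for NDUFS3, 0.65 for NDUFA1, 0.63 for NDUFB4, 0.51 for NDUFC1, 0.50 for NDUFB11, 0.50 for NDUFS6, 0.45 for NDUFS8, 0.45 for NDUFA8, 0.44 for NDUFB2 and 0.41 for NDUFB9. NDUFB5 of complex I had a lower difference, at -1.18. In complex II the higher differences were 0.78 for SDHB and 0.45 for SDHD. In complex III the higher differences were 0.80 for UQCR11, 0.69 for UQCRFS1, 0.55 for UQCRC1 and 0.51 for CYC1. In complex IV the higher differences were 0.77 for COX6B1, 0.62 for COX7B, 0.60 for COX7C, 0.57 for COX8A and 0.45 for COX5A. COX7A2L of complex IV had a lower difference, at -0.41. In complex V the higher differences were 0.97 for ATP5MF, 0.87 for ATP5PB, 0.72 for ATP5MC1, 0.54 for ATP5MC3, 0.49 for ATP5F1A and 0.48 for ATP5F1B. Of these 31, 11 lost their call in at least 1 alternative. NDUFB2 lost it in 12 of 17, SDHD in 9, NDUFS8 and NDUFC1 in 6 each, UQCR11 in 3, NDUFA8, NDUFA9 and NDUFB9 in 2 each, and COX7A2L, COX7B and COX8A in 1 each. All of them except COX7A2L lost it without C4-2 DMSO replicate 1. In that fit SDHD was at 0.20 and NDUFA8 at 0.28, with adjusted p over all 17 alternatives from 0.00918 to 0.558 for SDHD and from 0.00502 to 0.273 for NDUFA8. Line and count table cannot be told apart, so each difference is between the lines as deposited.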

How the results depend on the processing

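No called value changed sign under any alternative that was run. The 34 members called lower in C4-2 became 22 with DESeq2 and 28 with library totals, and 29 to 31 when each library was left out. The 3 called higher in C4-2 were 3 under each of them. In DU145 the 21 called higher ranged over 19 to 24 and the 11 called lower over 7 to 12 when each library was left out. The 30 higher differences between lines ranged over 20 to 33 and the 2 lower ones over 1 to 3 when each library was left out, and the 30 became 24 with library totals. The cause of these shifts was not tested. Deviations of same-numbered libraries correlated at 0.02, 0.0358 and 0.1277 in DU145. Of the 3 DU145 palbociclib libraries, only that numbered 3 correlated best with its own number. Libraries numbered 3 correlated at -0.0874 to -0.0503 with those of the other treatment numbered 1 or 2. In C4-2 every pair had a value of size 0.0226, so pairing cannot be judged there. With a replicate block the DU145 calls over all genes went from 4431 higher and 4493 lower to 4957 and 4996. Whether the numbers stand for a shared batch was not tested. With a replicate block the members called numbered 30 higher and 18 lower in DU145, 3 higher and 31 lower in C4-2, and 37 higher and 3 lower for the difference. In that fit complex IV in DU145 had 5 higher and 2 lower, COX4I1 and COX5B, and the UQCR11 difference, at 0.70, was not called. Of the called members reported here, 12 of 36 in C4-2, 9 of 32 in DU145 and 11 of 31 differences lost their call in at least 1 alternative. Leaving out a C4-2 DMSO library leaves 1, which is assumed to vary like the other groups. The C4-2 libraries are shallower by a ratio of 5.33 in mean total count, which limits calls for members with few counts there.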

Other observations

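Mitochondrial ribosomal proteins, which build the ribosome that translates the mitochondrially encoded subunits, were counted in the same fits. In DU145, 34 of 78 rose and 12 fell, 43.6% and 15.4%, beside 28.8% and 29.2% of all tested genes. In C4-2, 1 of 74 tested rose and 30 fell, 1.35% and 40.5%, beside 25.2% and 26.6%. The 30 falls became 15 with DESeq2. The 1 rise was not called without C4-2 palbociclib replicate 2, without either C4-2 DMSO replicate or with DESeq2, and 4 rose without C4-2 palbociclib replicate 3. MRPL14 of the large subunit was at 98.2 ± 9.59 CPM under palbociclib and 59.5 ± 1.19 CPM with DMSO in DU145 (SD, n = 3 each), a log2 fold change of 0.75 ± 0.079 (SE, edgeR adjusted p = 3.34e-07). In C4-2 it was at 35.3 ± 3.63 CPM under palbociclib (SD, n = 3) and 54.5 ± 0.829 CPM with DMSO (SD, n = 2), a log2 fold change of -0.67 ± 0.11 (SE, edgeR adjusted p = 3.33e-06). MRPL28 also rose in DU145 (0.32 ± 0.067) and fell in C4-2 (-0.70 ± 0.11). MRPS30, MRPL49 and MRPL50 rose in DU145 by 0.93, 0.89 and 1.05 on the log2 scale. MRPS27 fell there by 0.71, and MRPL37 and MRPL39 fell in C4-2 by 0.47 and 0.75.

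Of 17 genes of the citric acid cycle and pyruvate dehydrogenase, 5 rose and 7 fell in DU145, and none rose and 11 fell in C4-2. In DU145 these are 29.4% and 41.2%, beside 28.8% and 29.2% of all tested genes, so the share of rises was near that of all genes. In C4-2 they are 0.0% and 64.7%, beside 25.2% and 26.6%. Citrate synthase, CS, was at 109 ± 1.12 CPM under palbociclib (SD, n = 3) and 177 ± 6.71 CPM with DMSO (SD, n = 2) in C4-2, a log2 fold change of -0.75 ± 0.065, and rose by 0.22 ± 0.061 in DU145. The isocitrate dehydrogenase IDH2 fell in C4-2, at 50.8 ± 3.73 CPM under palbociclib and 107 ± 5.60 CPM with DMSO (-1.13 ± 0.088), and in DU145 (-0.37 ± 0.10). DLAT rose in DU145 (0.21 ± 0.073) and fell in C4-2 (-0.59 ± 0.097). PDHB, of pyruvate dehydrogenase, fell in both lines, by 1.01 in DU145 and 0.64 in C4-2. DLD and SUCLG2 fell in DU145 by 0.97 and 0.88, and IDH3A rose by 0.65.

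Of 17 genes for electron carriers and quinone synthesis, 4 rose and 6 fell in DU145, and 1 rose and 6 fell in C4-2, with 2 rises when C4-2 palbociclib replicate 1 or 3 or C4-2 DMSO replicate 1 was left out. The shares of rises and falls were 23.5% and 35.3% in DU145, beside 28.8% and 29.2% of all tested genes. In C4-2 they were 5.88% and 35.3%, beside 25.2% and 26.6%. CYCS, cytochrome c, rose in DU145 by 0.56 ± 0.072 and was at -0.16 ± 0.061 in C4-2. GPD2, which feeds electrons from glycerol 3-phosphate, rose by 0.21 in DU145 and fell by 0.88 in C4-2. COQ2 fell by 0.60 in DU145 and 1.01 in C4-2, and PDSS2 rose by 0.43 and 0.81. COQ5 fell in DU145 by 1.14 and COQ3 in C4-2 by 1.31.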
